A study of Saccharomyces cerevisiae with 13 samples.

Results

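Baker's yeast takes up inorganic phosphate through a small set of secreted phosphatases and membrane transporters, most of them controlled by the PHO pathway. The members here are 10 genes grouped as phosphate acquisition genes, taken by open reading frame ID, out of 6205 open reading frames on the arrays: PHO3 (YBR092C), PHO5 (YBR093C), PHO11 (YAR071W), PHO12 (YHR215W), PHO8 (YDR481C), PHO84 (YML123C), PHO89 (YBR296C), PHO81 (YGR233C), SPL2 (YHR136C) and VTC3 (YPL019C). All 10 had a value on every array, and none lay at the limit of the deposited scale. The series is a time course of Saccharomyces cerevisiae, arrested in G1 by the mating pheromone alpha factor and let go into the rich medium YEPD, with 1 sample every 10 min from 0 to 120 min, which its design text calls 2 cell cycles. The reference of every array was RNA of an asynchronous culture grown overnight in YEPD. The labels name no strain or genotype. Each time point has 1 array and no replicate, so the 13 arrays set how precise any value can be, and errors are standard errors (SE) from the residuals around a fitted model.

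When phosphate is plentiful, as in rich medium, the cyclin-dependent kinase Pho85 with its cyclin Pho80 phosphorylates the transcription factor Pho4 and keeps it out of the nucleus. When phosphate runs short, the inhibitor Pho81 blocks the kinase, and Pho4, together with Pho2, switches on genes for phosphatases, high-affinity transporters and polyphosphate synthesis. The state of the pathway also moves with the cell cycle: PHO5 is known to rise around mitosis even in rich medium, when stores of polyphosphate are drawn down.

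All values are log2 ratios of the time point over the asynchronous culture. The direction is likely rather than stated. The labels give Cy5 to the time points and Cy3 to the reference, and all 10 of a set of genes known to respond to pheromone, FUS1 among them, were above 0 at 0 min (from 1.40 to 4.88, median 2.66). With the opposite direction every rise would be a fall. A ratio compares a gene with itself in the reference, so levels of different genes are not compared. The file stamps in the sample titles split the arrays into set A (0 to 30 min, 4 arrays) and set B (40 to 120 min, 9 arrays). What the stamps record is not given. Correlations between arrays over all genes ran from 0.12 to 0.80, and the SD of the ratios was widest at 10 min (0.63) and narrowest at 110 min (0.31). Arrays at 0, 10 and 60 min held the highest value of 14.2%, 13.5% and 12.01% of genes and the lowest value of 11.3%, 15.9% and 12.4%, so extremes on these arrays were common for any gene.

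The secreted acid phosphatases moved together over the course. PHO5 encodes the main repressible acid phosphatase of the cell surface, PHO11 and PHO12 encode its minor repressible relatives, and PHO3 encodes the constitutive enzyme, known for its repression by thiamine. Each of the 4 genes was high at 10 min, low at 30 or 40 min, high again at 60 min, and lowest of the whole course at 90 min. The mean of the 4 genes was 0.61 at 10 min, -0.34 at 40 min, 0.68 at 60 min and -1.57 at 90 min. The interval between the highs of this mean was therefore 50 min, as was that between its lows at 40 and 90 min, at a sampling step of 10 min. PHO3 alone had its first low at 30 min. The mean was still rising at the end, from -0.50 at 110 min to -0.14 at 120 min, so the next high was not seen.

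PHO5 stood at -0.16 at 0 min, 0.21 at 10, 0.04 at 20, -0.38 at 30 and -0.44 at 40 min. It then stood at 0.46 at 50 min, 0.79 at 60, 0.49 at 70, -0.71 at 80, -1.29 at 90, -0.96 at 100, -0.02 at 110 and 0.29 at 120 min. Its high at 60 min was thus larger than that at 10 min, and its low at 90 min was deeper than that at 40 min. The whole range was 2.08 log2 (4.23-fold), a range that 4.75% of 6183 tested genes reached or passed.

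PHO3 stood at -0.16 at 0 min, 0.49 at 10, 0.46 at 20, -0.54 at 30 and -0.42 at 40 min. From there it stood at 0.40 at 50 min, 0.73 at 60, 0.38 at 70, -0.82 at 80, -1.70 at 90, -1.26 at 100, -0.38 at 110 and 0.15 at 120 min. It followed PHO5 closely, with a range of 2.43 log2 (5.39-fold). PHO3 and PHO5 are next to each other in the gene table, and their profiles correlated at 0.96 (Pearson, 13 arrays). The gene on the other side of PHO5, PBY1, correlated with it at -0.01, and TIM12, on the other side of PHO3, correlated with that gene at 0.38.

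PHO12 stood at -0.41 at 0 min, 0.96 at 10, 0.67 at 20, -0.04 at 30 and -0.25 at 40 min. Later it stood at 0.32 at 50 min, 0.66 at 60, 0.28 at 70, -0.73 at 80, -1.57 at 90, -1.35 at 100, -0.76 at 110 and -0.46 at 120 min. Unlike PHO5, it was highest at 10 min and still below 0 at the end. PHO11 had the same shape, from 0.78 at 10 min and 0.53 at 60 min to -1.72 at 90 min and -0.53 at 120 min. PHO11 and PHO12 differed by a median of 0.09 log2 per array and by at most 0.33 (80 min), with a correlation of 0.99. Both lie near chromosome ends, PHO11 as the outermost gene of its chromosome in the gene table and PHO12 with 3 genes beyond it.

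PHO11 and PHO12 are near-identical copies, and PHO3 and PHO5 are close paralogues of each other. The sources used here do not say what the spots contain, so signal shared between copies cannot be told apart from separate transcripts that move together. The members of this family are therefore not 4 independent measurements. They were not interchangeable, however: PHO11 exceeded PHO5 by 0.56 log2 at 10 min and 0.65 at 20 min, and lay under it by 0.80 at 110 min and 0.82 at 120 min. PHO3 lay between PHO11 and PHO5 at 10 and 20 min and at 110 and 120 min.

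**Figure D1:**
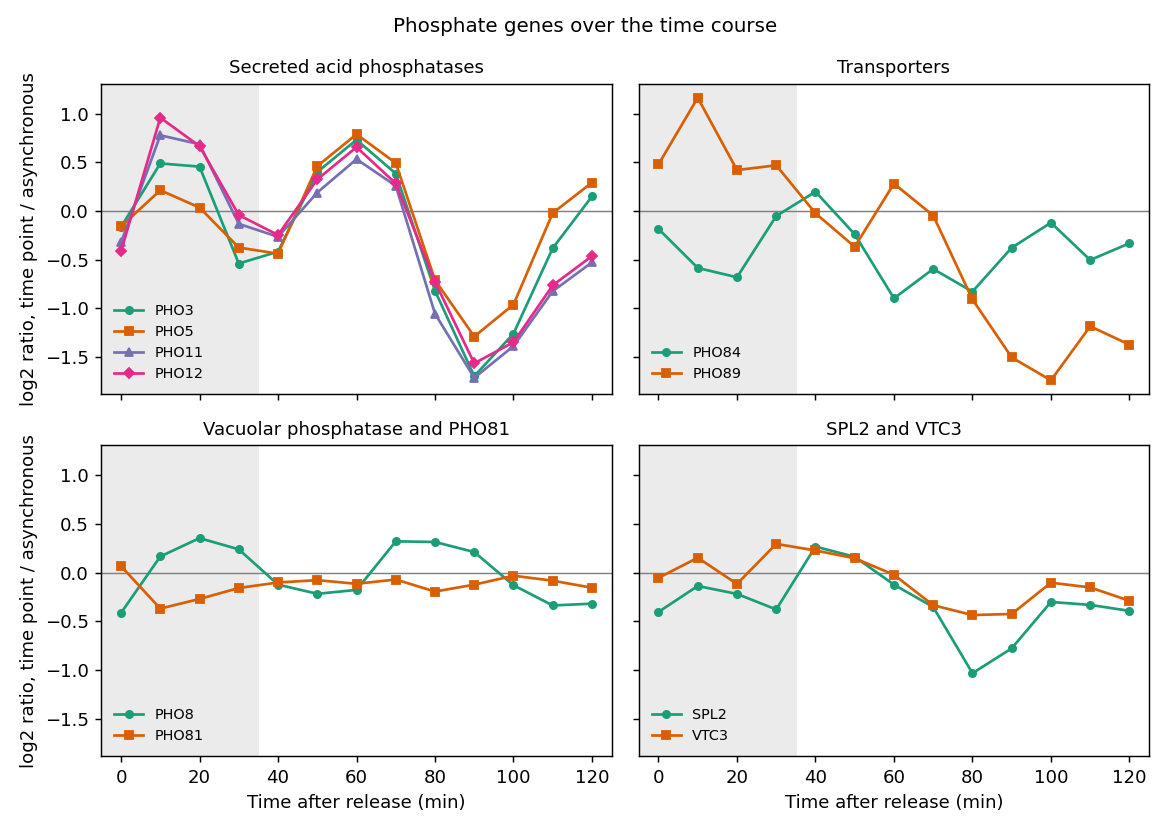
The log2 ratio of the time point over the asynchronous culture (vertical axis) against time after release in min (horizontal axis) for the 10 genes, in 4 panels by role; each point is 1 array and the shaded part marks set A. The 4 acid phosphatases are high at 10 and 60 min and lowest at 90 min, and PHO89 runs from 1.16 at 10 min to -1.74 at 100 min, while PHO81 stays between -0.37 and 0.07.

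The transporters did not follow each other. PHO89 encodes the high-affinity symporter that takes up phosphate with sodium ions, and PHO84 the high-affinity symporter that uses protons and does most of the work at low phosphate. PHO89 stood at 0.48 at 0 min, 1.16 at 10, 0.42 at 20, 0.47 at 30, -0.02 at 40 and -0.37 at 50 min. After that it stood at 0.28 at 60 min, -0.05 at 70, -0.91 at 80, -1.51 at 90, -1.74 at 100, -1.19 at 110 and -1.37 at 120 min. All 4 arrays of set A were above 0 and the last 5 arrays were below -0.9. Its range of 2.90 log2 (7.49-fold) was the widest of the members, and 1.89% of tested genes had one at least as wide.

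PHO84 was lowest at 60 min, when the acid phosphatases were high, and nearly as low at 80 min, when they were low too. It stood at -0.18 at 0 min, -0.59 at 10, -0.68 at 20, -0.05 at 30, 0.20 at 40, -0.24 at 50 and -0.90 at 60 min. In the rest of the course it stood at -0.60 at 70 min, -0.83 at 80, -0.38 at 90, -0.12 at 100, -0.50 at 110 and -0.33 at 120 min. Its highs at 40 and 100 min are 60 min apart, and 12 of its 13 values were below 0. It correlated with the 4 acid phosphatases at -0.27 (PHO11) to -0.37 (PHO3) and with PHO89 at -0.11. Its lowest value fell on the 60 min array, which held the lowest value of 12.4% of genes.

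PHO8, the vacuolar alkaline phosphatase, repeated most evenly. It stood at -0.41 at 0 min, 0.17 at 10, 0.36 at 20, 0.24 at 30, -0.12 at 40, -0.22 at 50 and -0.18 at 60 min. The second round gave 0.32 at 70 min, 0.32 at 80, 0.21 at 90, -0.13 at 100, -0.34 at 110 and -0.32 at 120 min. Its range was only 0.77 log2 (1.70-fold), which 41.6% of tested genes reached, so it was set apart by the evenness of its curve and not by its size.

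PHO81, the inhibitor of the Pho80-Pho85 kinase and itself a target of Pho4, changed least. It lay at 0.07 at 0 min and -0.37 at 10 min, its highest and lowest values, and between -0.27 and -0.03 on the other arrays. Of the tested genes 85.6% had a range at least as wide as its 0.44 log2.

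SPL2 and VTC3 were both above 0 at 40 and 50 min and lowest at 80 min. SPL2 encodes a small protein that holds back low-affinity phosphate uptake, and VTC3 a subunit of the vacuolar complex that makes polyphosphate. SPL2 lay between -0.40 and -0.14 on the arrays of set A, stood at 0.27 at 40 min, 0.16 at 50, -0.12 at 60, -0.35 at 70, -1.03 at 80 and -0.78 at 90 min, and lay between -0.39 and -0.30 from 100 min on. VTC3 stood at 0.30 at 30 min, 0.23 at 40, 0.15 at 50, -0.02 at 60, -0.33 at 70, -0.43 at 80 and -0.42 at 90 min. Its last 3 values lay between -0.29 and -0.10. Their profiles correlated at 0.76 over 13 arrays and at 0.94 over the 9 arrays of set B.

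At 100 and 110 min all 10 members were below 0, against 46.0% and 49.7% of tested genes. At 10 min 3 of the 10 were below 0, among 49.7% of tested genes.

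**Figure D2:**
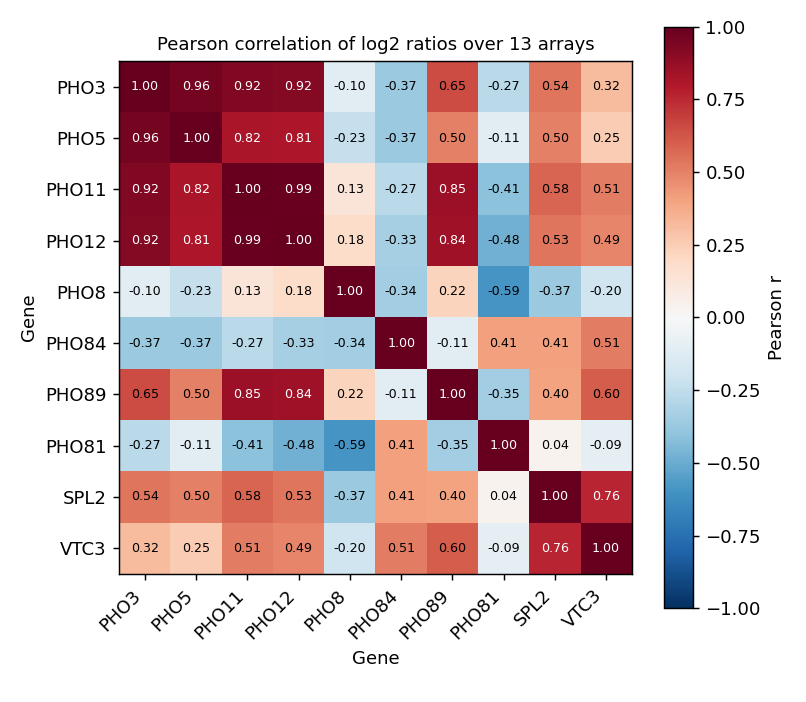
Pearson correlation of the log2 ratios over 13 arrays for each pair of the 10 genes (both axes are genes; colour and number give r). The acid phosphatases form a block with r from 0.81 to 0.99, PHO89 joins PHO11 and PHO12 at 0.85 and 0.84, and PHO84 and PHO81 are mostly below 0 against that block.

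The first comparison asked which members rise and fall with the cell cycle. A curve with a 60 min period, the length that 2 cycles in 120 min imply, was fitted to every gene with the array set as a covariate, and tested by limma's moderated F test with Benjamini-Hochberg adjustment over all genes and a threshold of 0.05. PHO5 and PHO8 passed, 2 of 10 members, where 5.47% of all 6183 genes did, and 5 of 10 had an unadjusted p under 0.05, as did 1309 of the 6183. The median peak-to-trough size was 0.77 log2 over the 10 members and 0.25 over all genes.

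PHO8 fell and rose with a size of 0.77 ± 0.10 log2 (SE, adjusted p = 0.00411) and peaked at 21.2 ± 1.2 min of the cycle. The curve took up 90.0% of the variance left by the array set. RNR1, a gene of the G1/S transition used here as a landmark, peaked at 19.1 min. PHO8 passed with any 1 array left out (adjusted p from 0.00393 to 0.0152).

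PHO5 had a size of 1.28 ± 0.28 log2 (2.43-fold, adjusted p = 0.0419) and peaked at 1.8 ± 2.5 min, the turn from one cycle to the next. The landmarks nearest to it were MCM5, of the boundary between mitosis and G1, at 5.8 min, and ASH1 at 9.3 min and SIC1 at 12.2 min, both of late mitosis and early G1. The call was close to the threshold: PHO5 passed in 2 of 13 fits that left out 1 array (adjusted p from 0.00639 without 0 min to 0.123 without 90 min) and missed the threshold once values at the limit of the scale were kept (0.0678). Within set B alone, which spans 40 to 120 min, it passed with a size of 1.84 ± 0.23 log2 (adjusted p = 0.00412).

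PHO3 had a larger fitted size than PHO5, 1.44 ± 0.36 log2, with a peak at 3.0 ± 2.8 min, and did not pass (adjusted p = 0.0718). It passed within set B alone (1.98 ± 0.32 log2, adjusted p = 0.0131) and without the 0 min array (adjusted p = 0.0124). PHO11 and PHO12 had sizes of 1.04 ± 0.44 and 1.05 ± 0.46 log2 and fitted peaks at 4.3 ± 4.6 and 5.7 ± 4.5 min (adjusted p = 0.329 and 0.338), and passed under none of 27 alternatives each. The residual SD around their curves was 0.67 log2 each, against 0.42 for PHO5, 0.10 for PHO8 and a median of 0.17 over all genes.

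PHO84 had a size of 0.76 ± 0.19 log2 with a fitted peak at 42.2 ± 2.1 min and did not pass (adjusted p = 0.0681, and 0.0465 with quantile-normalized arrays). The fitted peaks of VTC3 (45.5 ± 2.8 min), PHO81 (48.2 ± 5.1 min) and SPL2 (49.2 ± 3.2 min) lay in the same part of the cycle, near that of the mitotic cyclin CLB2 (45.8 min), the 1 landmark of 7 that did not itself pass (adjusted p = 0.0946). Their sizes were 0.46 ± 0.16, 0.17 ± 0.11 and 0.64 ± 0.25 log2, and none passed (adjusted p = 0.22, 0.559 and 0.271). PHO89, with 0.71 ± 0.45 log2, did not pass either (adjusted p = 0.566), and the 60 min curve took up 17.1% of its variance left by the array set.

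The fitted peaks thus fell into 3 parts of the cycle, with the acid phosphatases and PHO89 between 1.8 and 5.7 min, PHO8 at 21.2 min, and PHO84, VTC3, PHO81 and SPL2 between 42.2 and 49.2 min. Only PHO5 and PHO8 passed, so the places of the other members come from curves that were not called. Differences between members in peak time were not tested.

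A period of 60 min described the members unevenly. Over a grid from 40 to 90 min, the period with the smallest residual was 60 min for PHO8 and 59 min for PHO84, but 73 min for PHO5, 75 for PHO3, 85 for PHO11 and 87 for PHO12. PHO89 and VTC3 gave 89 and 90 min, next to or at the edge of the grid, where a drift and a slow curve cannot be told apart. This grid was added after seeing the data and has no test.

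**Figure D3:**
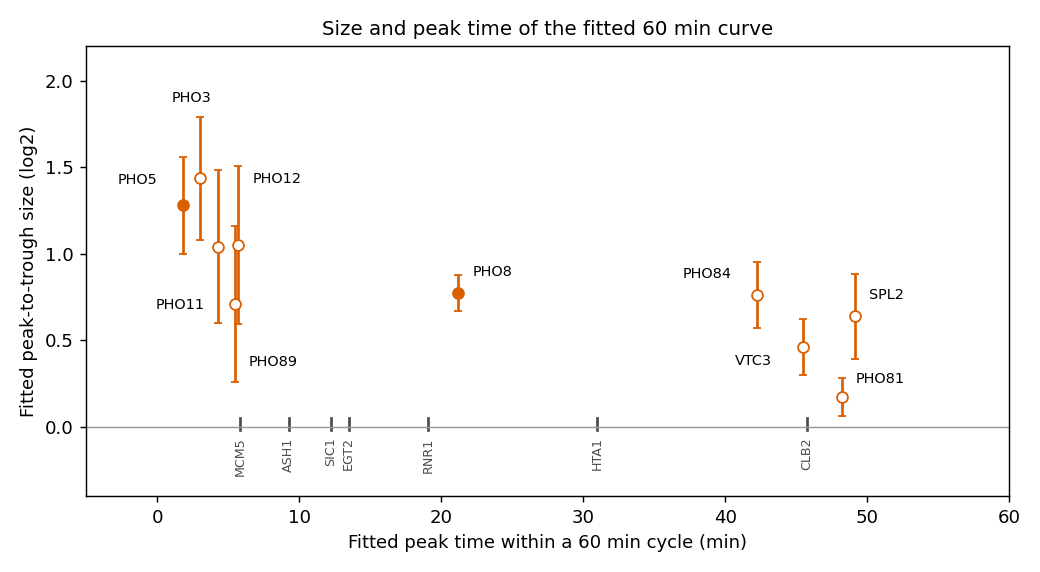
Fitted peak-to-trough size in log2 (vertical axis, bars ± SE) against fitted peak time within a 60 min cycle in min (horizontal axis) for the 10 genes; filled points passed limma's F test at an adjusted p under 0.05 and open ones did not. Ticks at 0 mark the fitted peaks of 7 landmark genes. PHO5 and PHO8 are filled, and the open points of PHO84, VTC3 and SPL2 lie near CLB2.

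The second comparison set the second cycle against the first at the same place of a nominal 60 min cycle. The arrays at 70, 80, 90, 100 and 110 min were set against those at 10, 20, 30, 40 and 50 min, paired 60 min apart (limma, moderated t test, Benjamini-Hochberg adjustment over 5932 genes). The mean of the acid phosphatases was high at 10 and 60 min and low at 40 and 90 min. For these genes arrays 60 min apart thus need not match in phase, and what this adds to a difference was not tested. PHO89, PHO11 and PHO12 fell, 3 of 10 members, where 0.523% of all genes were called lower. The copies PHO11 and PHO12 may share signal, so these are not 3 independent calls. No member was called higher, and 8 of 10 had an unadjusted p under 0.05, as did 1124 of all 5932 genes. The median difference was -0.49 log2 over the 10 members and -0.01 over all genes, and 9 of the 10 differences were below 0, against 3091 of the 5932.

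PHO89 averaged -1.08 over the 5 arrays of the second cycle and 0.33 over those of the first, a difference of -1.41 ± 0.16 log2 (SE, adjusted p = 0.0252). PHO11 averaged -0.95 in the second and 0.25 in the first (-1.20 ± 0.17, adjusted p = 0.032). PHO12 averaged -0.83 in the second and 0.33 in the first (-1.16 ± 0.12, adjusted p = 0.0229). In each of these genes all 5 pairs were lower in the second cycle. All 3 calls were lost when the pair from 20, 30 or 40 min was left out (adjusted p up to 0.171 over such fits), and then no gene on the arrays was called. They were also lost when values at the limit of the scale were kept (adjusted p up to 0.0995) and when 0 and 60 min were added as a pair, with adjusted p = 0.0694 for PHO89, 0.222 for PHO11 and 0.254 for PHO12. With pairs 70 min apart PHO89 was still called lower (adjusted p = 0.0274), while PHO11 (0.174) and PHO12 (0.178) were not, and PHO11 was also lost without the pair from 50 min (0.0623).

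PHO3 averaged -0.76 in the second cycle and 0.08 in the first, a difference of -0.83 ± 0.16 log2, and did not pass (adjusted p = 0.0575). The differences of SPL2 (-0.50 ± 0.10), VTC3 (-0.43 ± 0.09) and PHO84 (-0.21 ± 0.08) did not pass either (adjusted p = 0.0607, 0.0685 and 0.215), although all 5 pairs were lower in each. Some of these genes passed limma's test under alternatives. VTC3 passed with pairs 70 min apart (adjusted p = 0.0448) and with quantile-normalized arrays (0.0446), and SPL2 with quantile-normalized arrays (0.0393). Without the pair from 10 min PHO3 and PHO5 passed (0.0236 and 0.0468). Over the whole array, 9.54% of genes were lower in all 5 pairs, and 7 of 10 members were. Among these 7 are PHO3, PHO11 and PHO12, which are not independent of each other. PHO5 was lower in 4 of 5 pairs (-0.48 ± 0.16 log2, adjusted p = 0.182), with 0.28 log2 more at 70 min than at 10 min. PHO8 differed by -0.01 ± 0.07 and PHO81 by 0.09 ± 0.08 log2 (adjusted p = 0.969 and 0.539).

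The arrays at 10, 20 and 30 min belong to set A and their partners to set B, so set and cycle are in part confounded. The pairs from 40 and 50 min lie within set B. Over these alone PHO89 differed by -1.27 ± 0.21, PHO11 by -1.07 ± 0.11, PHO12 by -1.10 ± 0.11 and PHO3 by -0.81 ± 0.11 log2. With only 2 pairs no member was called by limma (adjusted p = 0.144, 0.0583, 0.0561 and 0.114), while 3 of 6170 genes were, all of them higher. An unadjusted p under 0.05 was found for 8 of 10 members and 809 genes.

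**Figure D4:**
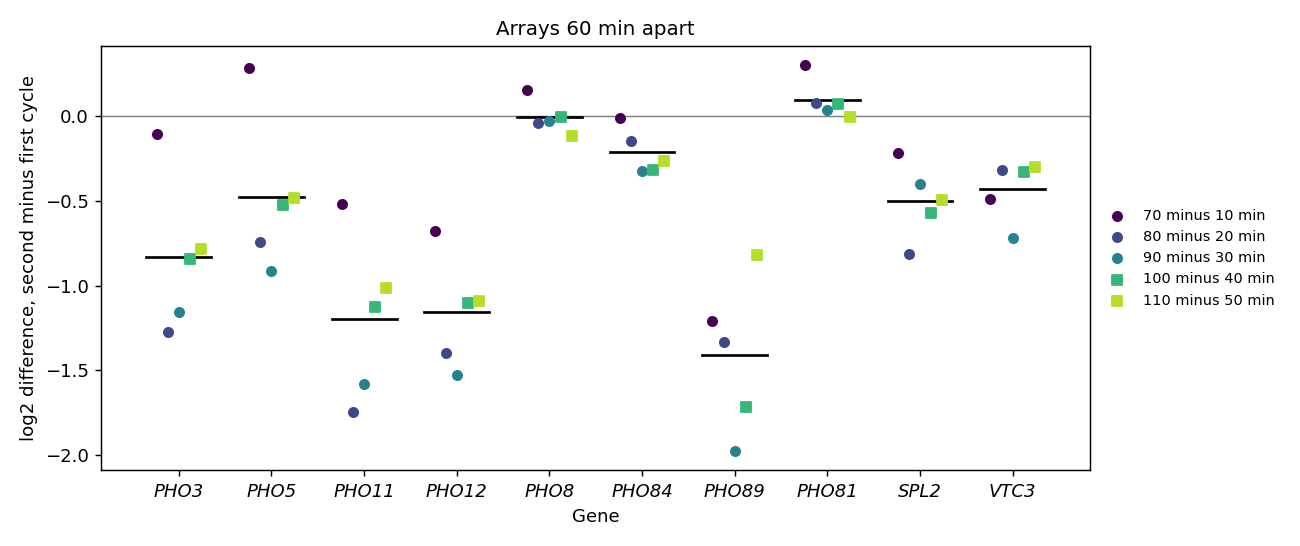
Difference in log2 ratio between arrays 60 min apart, second minus first cycle (vertical axis), for the 10 genes (horizontal axis); each point is 1 pair, squares are pairs within set B, and bars are means over the 5 pairs. PHO11, PHO12 and PHO89 lie below 0 in every pair, and PHO8 and PHO81 lie around 0.

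The third comparison asked for a steady drift. With time as a linear term beside the array set and the 60 min curve, no member and no other gene was called by limma (0% of 6183 genes), while 4 of 10 members and 513 genes had an unadjusted p under 0.05. All 10 members' slopes were below 0, against 3292 of the 6183 genes, and that of PHO89 was -1.24 ± 0.25 log2 per hour (adjusted p = 0.292). Within set B alone no change of set interferes. There the slope beside the 60 min curve was called below 0 in 4 of 10 members and in 0.0807% of 6196 genes. These 4 were PHO12 (-1.13 ± 0.08 log2 per hour, adjusted p = 0.000652), PHO11 (-1.12 ± 0.10, adjusted p = 0.00345), PHO89 (-1.42 ± 0.15, adjusted p = 0.00642) and PHO3 (-0.78 ± 0.09, adjusted p = 0.0131). PHO3, PHO11 and PHO12 are of the family whose copies may share signal, so these are not 4 independent calls. The only other falling gene was HXT2, a glucose transporter (-1.13 ± 0.16, adjusted p = 0.0427), and 4 genes rose.

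PHO12 passed whichever of the 9 arrays was left out, PHO11 in 8 of 9 such fits, PHO89 in 7 and PHO3 in 4. At a period of 65 min PHO3 was no longer called by limma (-0.47 ± 0.10 log2 per hour, adjusted p = 0.107), while PHO11, PHO12 and PHO89 were. These slopes are what the fit leaves beside the curve. PHO3 itself stood at -0.42 at 40 min and 0.15 at 120 min, and the mean of the 4 acid phosphatases rose from -1.57 at 90 min to -0.14 at 120 min. Without the 40 min array PHO12 was the only gene called (adjusted p = 0.02), and without the 120 min array 2 members were called. PHO5 fell short (-0.53 ± 0.09 log2 per hour, adjusted p = 0.0709), as did SPL2 (-0.49 ± 0.12, 0.127) and VTC3 (-0.31 ± 0.08, 0.147). PHO8, PHO84 and PHO81 had slopes of -0.11 ± 0.09, -0.06 ± 0.17 and -0.01 ± 0.08 log2 per hour (adjusted p = 0.615, 0.915 and 0.976). These standard errors do not show that the 3 slopes are 0. Slope and curve rest here on 9 arrays that cover little more than 1 nominal cycle. The longer periods that the grid gave for PHO3 (75 min), PHO11 (85 min) and PHO12 (87 min) were not fitted with a slope.

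The last comparison set the arrested cells at 0 min against the fitted curve. No member was called by limma, where 5.23% of 6153 genes were, and 5 of 10 had an unadjusted p under 0.05, as did 1179 of the 6153. The acid phosphatases lay below their curves, PHO12 by -1.80 ± 0.58, PHO11 by -1.69 ± 0.60, PHO3 by -1.45 ± 0.48 and PHO5 by -1.18 ± 0.37 log2 (adjusted p = 0.103, 0.14, 0.111 and 0.0914). These 4 genes were all called lower with a period of 65 min (adjusted p from 0.00839 to 0.0292), and at 50 min the sign of PHO3 and PHO5 turned (0.11 and 0.25 log2). Without the array set in the model the deviations were smaller, -0.73 for PHO12, -0.55 for PHO11, -0.72 for PHO3 and -0.76 for PHO5, and that of PHO89 turned to 0.74 ± 0.86 log2, none of them called. PHO81, at 0.33 ± 0.13 log2, and PHO84, at 0.25 ± 0.28, were the members above their curves.

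Among the genes that control the pathway, none was called in any of the 4 tests (9 genes, 8 of them in the comparison of cycles). Over all genes 5.47% were called periodic, 5.23% at 0 min, 55 of 5932 between the cycles and 0% for a linear trend. With shares this low, no call among so few genes says little about them. In the comparison of cycles 3 of the 8 had an unadjusted p under 0.05, as did 1124 of all 5932 genes. These 3 were VIP1, an inositol pyrophosphate kinase, at -0.56 ± 0.13 log2 (adjusted p = 0.0921), PHO80 at 0.34 ± 0.08 (adjusted p = 0.0894) and PHO86, which helps Pho84 leave the endoplasmic reticulum, at -0.39 ± 0.10 (adjusted p = 0.112). PHO4, the transcription factor, lay between 0.03 and 0.38 on all arrays, and its fitted size was 0.09 ± 0.12 log2 (adjusted p = 0.874). PHO2, its partner, had 0.29 ± 0.12 log2 (adjusted p = 0.325) and the kinase PHO85 0.08 ± 0.14 (adjusted p = 0.928). The cyclin PHO80 stood at 0.81 at 60 min and between -0.51 and 0.11 elsewhere, with a fitted size of 0.45 ± 0.18 log2 (adjusted p = 0.295). These measurements are of transcripts. Phosphorylation and the place of Pho4 in the cell were not measured.

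Of 11 other genes known as Pho4 targets, none was periodic, where 5.47% of all genes were. Between the cycles 1 of the 11 fell, where 0.523% of all genes were called lower. It was GIT1, a transporter of glycerophosphoinositol and related phosphodiesters, with -1.77 ± 0.21 log2 in the second cycle against the first (adjusted p = 0.0304). GIT1 stood between 1.13 and 2.38 on every array up to 50 min and between -0.40 and 0.43 from 60 min on. For the list, 9 of 11 genes were below 0 in this comparison, with a median of -0.34 log2, while 3091 of 5932 genes were. An unadjusted p under 0.05 was found for 9 of the 11 and for 1124 of the 5932. PHM6, whose function is not well known, was at -0.67 ± 0.16 log2 (adjusted p = 0.0974), and VTC4, the catalytic subunit of the polyphosphate complex, at -0.35 ± 0.07.

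Of 7 genes for low-affinity or vacuolar phosphate transport and polyphosphate turnover, 1 was periodic, where 5.47% of all genes were. This was VTC5 (0.78 ± 0.14 log2, adjusted p = 0.0161), with a peak at 37.5 min. VTC5 encodes an accessory subunit of the VTC complex. It stood at 0.87 at 40 min and 0.99 at 100 min, and lay lowest at 0 min (-0.04). The low-affinity transporters PHO87 and PHO90 had sizes of 0.56 ± 0.14 and 0.57 ± 0.17 log2 with fitted peaks at 45.2 and 46.1 min and did not pass (adjusted p = 0.0704 and 0.15). No gene of this list was called in the comparison of cycles, where 55 of 5932 genes were. The 2 other phosphatases, DIA3 and PHO13, were called in none of the tests.

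Since PHO3 is known to answer to thiamine, a list of 15 thiamine genes was set beside it. None was periodic, where 5.47% of all genes were. None of the 12 with values on all arrays of the comparison of cycles was called there, where 55 of 5932 genes were. At 0 min 1 of the 15 was called, where 5.23% of all genes were. This was THI12, at -2.71 ± 0.37 log2 (adjusted p = 0.00309, 11 arrays with a value), against a list median of -0.04. THI12 stood at -2.25 at 0 min and between -0.21 and 0.97 on its other arrays, so the call rests on 1 array. Of the 12, 7 were below 0 in the second cycle against the first, as were 3091 of all 5932 genes. An unadjusted p under 0.05 was found for 3 of the 12 and for 1124 of the 5932. Among these 3 was the thiamine transporter THI7 at -0.38 ± 0.08 log2 (adjusted p = 0.0769).

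The genes most like PHO3, PHO5, PHO84 and SPL2 over the arrays were ranked by Pearson correlation. Another member came first for PHO3 and for PHO5 but not for PHO84 and SPL2, and for PHO5 no member but PHO3 was among the 5 highest. For PHO3 the 5 highest Pearson correlations were those of PHO5 (0.96), PHO11 (0.92), PHO12 (0.92), GCY1 (0.90) and MTE1 (0.86) among 6182 genes. For PHO5, PHO3 came first and RPO41 followed at 0.86, then YOL037C (0.85, 12 arrays), YPL182C (0.85, 11 arrays) and ECM21 (0.84). PHO84 was most like TAH11 (0.91), NUP84 (0.90), PUF4 (0.89), PRP2 (0.89) and RPA43 (0.88). SPL2 was most like SIT1 (0.90), and VTC1, another subunit of the polyphosphate complex, came next at 0.83, before URA2 (0.83), SHM2 (0.82) and NMD4 (0.81). All of these share the arrays and the reference. By Spearman's rho PHO3 remained the gene most like PHO5 (0.90), but the gene most like PHO3 was GCY1 (0.97), ahead of PHO5, and VTC1 ranked 74th for SPL2 (0.65).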

How the data were processed

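RNA of 13 time points was measured on 2-colour arrays, 1 array each, with Cy5 on the time point and Cy3 on the asynchronous culture, per the labels. The deposited values are log10 ratios, whose base was read from the values (they end at 2 and -2). The scanner, any background correction, the normalization and how spots were averaged are not stated in the labels or the file. Values were multiplied by 3.32 to give log2. Of all values, 272 at or beyond 1.99 in size on the log10 scale were treated as missing. Genes with values on at least 11 arrays were tested, and the comparison of cycles used genes with values on all 10 of its arrays. Names of 5704 of 6205 open reading frames were found in RefSeq's gene table (assembly R64), and 12 other rows stayed out. No coordinates or sequences are printed.

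Models were fitted across all genes with limma 3.58.1 in R 4.3.3 and adjusted by Benjamini-Hochberg at 0.05. They were tested on simulated data. The SE of a curve's size and peak come from the delta method. Descriptions used Python 3.11.15, NumPy 2.4.6 and pandas 2.3.3, and plots matplotlib 3.10.9. The members and lists were chosen with earlier results of these data known. Named are the 10 members, PHO4, PHO2, PHO80 and PHO85, up to 3 called genes per list and test, the 5 genes most like each of PHO3, PHO5, PHO84 and SPL2, and 7 landmarks. Others (VIP1, PHO86, THI7, PHM6, VTC4, PHO87, PHO90, the neighbours PBY1 and TIM12, HXT2, DIA3, PHO13) were named after their values were seen. Alternatives covered the period, the array set, scaling, limit values, filters, shrinkage and single arrays or pairs left out.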

Additional observations from a re-analysis of the deposited data

How the results depend on the processing

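The number of members called periodic, 2 at 60 min, was 0 at 50 and 55 min, and 1 once a linear time term, the limit values or a second harmonic was added. It ran from 1 to 3 when 1 array was left out. Over all genes 338 were periodic, against 0 at 50 min, 6 at 55 min, 73 with a second harmonic and 143 to 381 without 1 array. At 0 min, 4 members were called at a 65 min period, and 0 to 1 without 1 array. All genes called at 0 min were 556 of 6153 at a 65 min period, against 322 at 60 min. For the second against the first cycle, with 3 members, the count was 5 with quantile-normalized arrays, 0 with the pair of 0 and 60 min added, 0 with limit values kept, 0 over the 2 pairs within set B, and from 0 to 5 without 1 pair; all genes called were 55, and 0 without the pair from 20, 30 or 40 min. The linear trend, with no member called, gave 1 without the array set, 4 within set B alone, and 0 to 2 without 1 array. The fall of members within set B, with 4 called, ran from 1 to 4 without 1 array and was 5 at 55 min and 3 at 65 min. The comparison over the 2 pairs within set B, all alternatives to the fall within set B (periods, scaling, limit values, shrinkage and single arrays), the correlations within set B and the grid of periods were added after seeing the data. Every time point rests on 1 array, and spot intensities were not used here, so signal over background is not known.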
